A study of Mus musculus with 3 samples.

Results

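A set of 10 genes that mark mesenchymal and stromal cells was followed in mouse embryonic fibroblasts (MEFs), namely Thy1, Ly6a, Nt5e, Cd44, Eng, Cd34, Vcam1, Pdpn, Fap and S100a4. These 10 genes, of 46603 in the count tables, were found by their mouse gene symbol, and the set was chosen by their measured levels in these same libraries, with the low level of Thy1 in view. Levels are therefore given as descriptions without a test. RNA-Seq of polyadenylated RNA had been performed on 3 libraries of a single condition, called KO-actin in the study. These are β-actin knockout MEFs that express β-actin fused to an NLS, the signal that sends a protein into the nucleus, and every library shares both the knockout and the tagged protein. The cells came from a previously generated line, and the sources do not say whether the 3 libraries are separate cultures, so the spread between them may be technical. Wild-type and knockout libraries were not analysed here, and no value below is a change caused by the knockout or by NLS-tagged β-actin.

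Fibroblasts and mesenchymal stromal cells are usually sorted with antibodies to proteins of the cell surface, because no single gene defines them. THY1 (CD90), NT5E (CD73) and endoglin (CD105) are the classic positive markers of cultured mesenchymal stromal cells, while LY6A (Sca-1), CD44, VCAM1, podoplanin and CD34 separate stromal subsets in mouse tissue, and FAP marks activated fibroblasts. The proteins reach the surface in different ways. THY1, LY6A and NT5E are held in the membrane by a glycosylphosphatidylinositol (GPI) lipid anchor, CD44, endoglin, CD34, VCAM1, podoplanin and FAP span the membrane, and S100A4 is a small calcium-binding protein that lies mainly in the cytosol although it is often listed with surface markers.

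The libraries held between 44383636 and 49932446 counts. Counts were scaled by TMM library sizes to CPM, a count per fixed library total that allows libraries to be compared, and levels of different genes were compared only after division by the exonic length in kilobases (CPM per kilobase). The detection floor used here required over 3 counts in each of the libraries, equal to 0.0601 to 0.0671 CPM depending on the library, and genes passing it in all of them are called above the floor. Of all 21624 protein-coding genes, 58.9% were above the floor, and each list count below is to be read beside that share. No list count was tested against it. Replicate 2 stood apart from the others: across 13770 genes the deviation of its log2 CPM from the mean of the 3 libraries had a Spearman correlation of 0.50 with the GC content of the transcript, a description over genes that share the same libraries. Its part in the results below was not tested beyond the values given with them.

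The 10 markers differed widely in level, from percentile 27.1 to percentile 95.4 of the protein-coding genes per kilobase. Of the 10, 8 were above the floor in every library, against 58.9% of all 21624 protein-coding genes, and the exceptions were Cd34 and Fap. Their median level was 1.04 CPM per kilobase, compared with a median of 0.490 CPM per kilobase over all protein-coding genes and 6.43 CPM per kilobase over protein-coding genes above the floor. S100a4, Cd44 and Ly6a were high, Vcam1 and Pdpn intermediate, and Eng, Thy1 and Nt5e low. By CPM, 97.3% of the summed signal of the set came from its 4 most abundant members, and Cd44 alone held 69.2%. Per kilobase, S100a4 ranked highest, followed by Cd44, Ly6a, Vcam1, Pdpn, Eng, Thy1, Nt5e, Cd34 and Fap. The ranges over the 3 libraries did not overlap between any neighbours in this order. For the lower neighbours this separation was narrow: the lowest value of Thy1 was 0.197 CPM per kilobase and the highest of Nt5e was 0.193, and Cd34 and Fap were too scarce to be ordered at this depth. Thy1 was thus low, and it was not the lowest of the set.

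**Figure D1:**
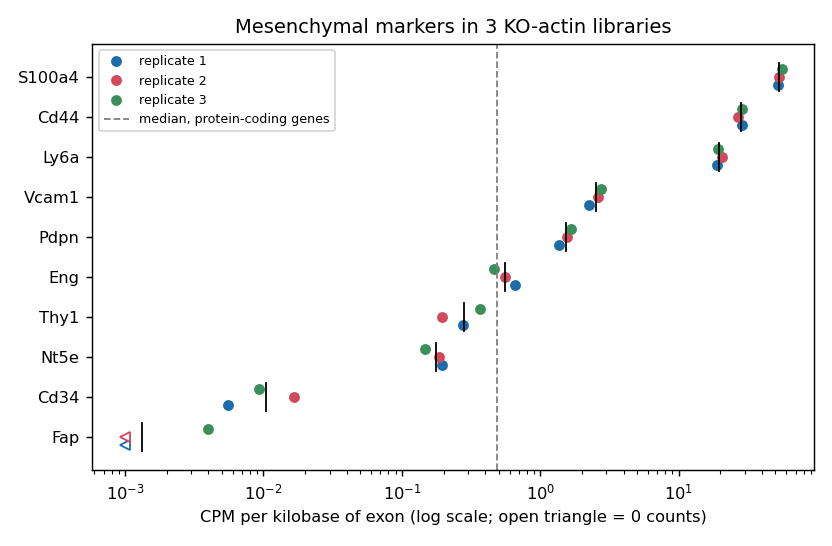
CPM per kilobase of exon (log scale) of each marker in replicates 1 to 3 of KO-actin cells, with the mean as a vertical bar and the median of all protein-coding genes (0.490) as a dashed line; open triangles mark libraries with 0 counts and have no position on the scale. S100a4, Cd44 and Ly6a lie near or above 20 CPM per kilobase, whereas Thy1 and Nt5e lie below the median gene and Cd34 and Fap close to 0.

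Thy1 encodes a small GPI-anchored glycoprotein of the immunoglobulin superfamily, found on thymocytes, neurons and many fibroblasts, that binds integrins on neighbouring cells. The gene (ENSMUSG00000032011) spans 44043384 to 44048579 of chromosome 9 (plus strand, GRCm38, the build of all coordinates given here). It received 41, 29 and 49 counts in replicates 1 to 3. The corresponding levels were 0.821 CPM with an exact Poisson 95% interval of 0.590 to 1.11, 0.588 CPM with 0.394 to 0.845, and 1.10 CPM with 0.811 to 1.45. These intervals cover counting error only. Replicate 2 was the lowest library and replicate 3 the highest, and their intervals overlapped slightly. The mean was 0.836 ± 0.254 CPM (SD, n = 3), or 0.279 ± 0.0849 CPM per kilobase (SD, n = 3), which placed Thy1 at percentile 47.6 of the protein-coding genes. In bulk RNA, a small share of cells with much Thy1 RNA and a low level in every cell cannot be told apart. No shared sequence was found for Thy1: 0% of the 50-base windows of its longest coding transcript (1735 bases) occurred in transcripts of another gene, and no annotated gene overlapped its exons. These exons total 2995 bases, and inexact matches were not searched. The protein-coding genes nearest to Thy1 in level over the 3 libraries were Egfl8, H2-DMb2 and Rep15, at distances of 0.21, 0.23 and 0.23 on the log2 scale of CPM per kilobase.

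The other GPI-anchored members lay on both sides of Thy1. Ly6a, the stem cell antigen Sca-1 of the Ly6 family (chromosome 15, 74994877 to 74998031, minus strand), had 22.8, 24.8 and 23.0 CPM in replicates 1 to 3, a mean of 23.5 ± 1.08 CPM (SD, n = 3). Within each library its level per kilobase exceeded that of Thy1, by 68.9-fold, 105-fold and 52.2-fold in turn. Nt5e encodes the ecto-5′-nucleotidase that turns extracellular AMP into adenosine (chromosome 9, 88327197 to 88372092, plus strand). It had 83, 79 and 56 counts, a mean of 1.51 ± 0.221 CPM (SD, n = 3). Its CPM was above that of Thy1 in every library, whereas its level per kilobase was below, with a ratio to Thy1 of 0.684 ± 0.276 (SD, n = 3) and of 0.949 in replicate 2. Thus the order of Nt5e and Thy1 depended on the length correction. Of the listed genes of extracellular adenosine, 10 of 14 were above the floor (71.4%, against 58.9% of all protein-coding genes). The transporter gene Slc29a1, which carries adenosine across the membrane, had 210 ± 6.49 CPM (SD, n = 3), whereas Entpd1, whose enzyme makes the AMP that NT5E uses, had 3, 2 and 5 counts. The machinery that these proteins share was expressed. Of its matched genes, for GPI anchor synthesis and attachment, 27 of 27 were above the floor (100%, against 58.9% of all protein-coding genes). All 27 had a higher mean level per kilobase than Thy1. The lowest, Dpm1, was not separated from Thy1 per kilobase, at 0.305 ± 0.0129 against 0.279 ± 0.0849 CPM per kilobase (SD, n = 3). Before the length correction it was higher, at 2.28 ± 0.0963 against 0.836 ± 0.254 CPM (SD, n = 3). Pigt and Gpaa1, subunits of the transamidase that attaches the anchor, had 139 ± 11.6 and 103 ± 8.16 CPM (SD, n = 3). Among glypicans and other GPI-anchored surface proteins, 17 of 26 were above the floor (65.4%, against 58.9% of all protein-coding genes). They were led per kilobase by Prnp, the prion protein, at 122 ± 0.389 CPM, Bst2 at 40.7 ± 0.715 CPM and Gpc1, a glypican, at 201 ± 14.2 CPM (SD, n = 3).

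Part of the Ly6a coding sequence is shared with a neighbouring gene of the same family, which bears on how far its count can be trusted. Of the 50-base windows of the Ly6a mRNA, 10.04% occurred in transcripts of other genes, with Ly6c1 the gene that shared the most, and 0% of the 100-base windows did; the read length is not given in the sources used here. The longest coding run found in another gene was shared with Ly6i and is shown here because reads inside it fit both genes. It has 80 bases, from base 50 to base 129 of the 402 coding bases, and runs from exon 2 into exon 3 (chr15:74996510-74997555, minus strand, GRCm38), with the bases of exon 3 in capitals.
Ly6a: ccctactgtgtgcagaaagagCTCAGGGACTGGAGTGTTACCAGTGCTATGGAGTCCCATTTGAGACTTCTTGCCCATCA
Ly6i itself was listed at 1, 2 and 1 counts. Ly6c1 had 140, 131 and 154 counts, against 1136, 1220 and 1029 for Ly6a.

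Cd44, the main receptor for hyaluronan, was the most abundant member by CPM. The gene (chromosome 2, 102811141 to 102901665, minus strand) had 196, 181 and 193 CPM in replicates 1 to 3, a mean of 190 ± 7.62 CPM (SD, n = 3), and lay at percentile 90.2 of the protein-coding genes per kilobase. It was 106 ± 29.3-fold (SD, n = 3) above Thy1 per kilobase, while Cd44 itself differed by 1.08-fold between its highest and lowest library. Its longest coding transcript has 19 exons, some of which are spliced in variably, and gene counts do not separate these isoforms. Of the genes that make, bind and break down hyaluronan or link CD44 to actin, 16 of 17 were above the floor. They were led per kilobase by the membrane-cytoskeleton linkers Msn (moesin, 1109 ± 38.8 CPM), Rdx (radixin, 231 ± 5.44 CPM) and Ezr (ezrin, 99.6 ± 3.93 CPM), followed by the hyaluronan-binding gene Hmmr at 93.0 ± 5.77 CPM (SD, n = 3). Has2, a hyaluronan synthase, had 38.6 ± 1.02 CPM (SD, n = 3), while its relatives Has1 and Has3 had 0.201 and 0.321 CPM. The exception in the list was Lyve1, the lymphatic hyaluronan receptor, with 0, 0 and 1 counts.

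Eng encodes endoglin, a co-receptor that presents BMP9 and TGF-β to their signalling receptors and is most abundant in endothelium. The gene (chromosome 2, 32646595 to 32682669, plus strand) had 132, 111 and 84 counts, or 2.64, 2.25 and 1.88 CPM, with replicate 1 the highest and replicate 3 the lowest. Its mean was 2.26 ± 0.382 CPM (SD, n = 3), and per kilobase it was 2.16 ± 0.805-fold (SD, n = 3) the level of Thy1. Fpgs, at 48.8 CPM, overlaps 1.51% of the Eng exons from the opposite strand, and whether counting used the strand is not stated. In its receptor complex 8 of 11 listed genes were above the floor (72.7%, against 58.9% of all protein-coding genes). The TGF-β receptors were present, with Tgfbr2 at 97.9 ± 3.70 CPM and Tgfbr1 at 56.2 ± 5.50 CPM (SD, n = 3), as was the BMP receptor Bmpr2 at 94.5 ± 6.17 CPM (SD, n = 3). Acvrl1, the type I receptor through which endoglin signals in endothelium, had 0, 1 and 3 counts, and its ligand genes Gdf2 and Bmp10 were at 0 in every library.

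The sialomucin genes Cd34 and Pdpn differed, with Cd34 near the floor and Pdpn intermediate. Cd34, a marker of blood progenitors, endothelium and resident tissue fibroblasts (chromosome 1, 194938819 to 194961279, plus strand), had 2, 6 and 3 counts and passed the floor in replicate 2 alone. Over the 3 libraries its 11 counts allowed 0.0382 to 0.137 CPM by an exact Poisson 95% interval. Of 8 listed sialomucins and related genes 3 were above the floor, and those closest to Cd34 differed from it widely: Podxl, encoding podocalyxin, had 104 ± 2.80 CPM (SD, n = 3), and Cd164 had 294 ± 11.3 CPM (SD, n = 3). Pdpn encodes podoplanin, which drives contractility of fibroblastic cells in lymph nodes and marks lymphatic vessels (chromosome 4, 143267431 to 143299564, minus strand). It had 123, 139 and 135 counts, a mean of 2.77 ± 0.282 CPM (SD, n = 3), and was 5.80 ± 1.83-fold (SD, n = 3) above Thy1 per kilobase. Among its 8 listed partners 6 were above the floor, including Msn, Rdx and Ezr, which tether podoplanin to actin, and Rhoa at 351 ± 9.62 CPM (SD, n = 3). Clec1b, its platelet receptor, was at 0 in every library.

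Vcam1 encodes an adhesion molecule of the immunoglobulin superfamily that holds leukocytes through α4 integrins. The gene (chromosome 3, 116109949 to 116129688, minus strand) had 19.9, 23.1 and 24.5 CPM, with replicate 1 the lowest. Its mean was 22.5 ± 2.34 CPM (SD, n = 3) and its level per kilobase 9.66 ± 3.14-fold (SD, n = 3) that of Thy1. By CPM it was close to Ly6a, whose range of 22.8 to 24.8 overlapped, whereas per kilobase Ly6a was 7.69-fold higher, since the Vcam1 exons total 8870 bases and those of Ly6a 1205. Of the listed adhesion partners of VCAM1 and THY1, 9 of 13 were above the floor (69.2%, against 58.9% of all protein-coding genes). Itga4, the α4 integrin that VCAM1 binds, had 1, 0 and 0 counts, and Itga9, which also binds it, had 5, 4 and 3. The inducible adhesion gene Icam1, often regulated together with Vcam1, had 5, 3 and 1 counts. The NF-κB genes Rela and Nfkb1 were at 229 ± 16.3 and 137 ± 4.69 CPM (SD, n = 3), and the activity of NF-κB was not tested. Integrin genes whose products bind THY1 differed in level: Itgb5 had 196 ± 7.39 CPM, Itgav 216 ± 12.3 CPM and Itgb3 11.5 ± 0.838 CPM (SD, n = 3), whereas the leukocyte integrin genes Itgam and Itgb2 had 0, 2 and 5 counts and 11, 8 and 12 counts. The heparan sulphate proteoglycan gene Sdc4 had 123 ± 1.82 CPM (SD, n = 3).

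Fap had the fewest counts of the set, and its pooled interval overlapped that of Cd34. It encodes a membrane serine protease of the dipeptidyl peptidase family (chromosome 2, 62500943 to 62574075, minus strand) and had 0, 0 and 1 counts. An exact Poisson 95% interval over the 3 libraries allowed up to 0.0387 CPM. Dpp4, its closest relative, lies 88.7 kb from Fap on the same strand (chromosome 2, 62330073 to 62412231) and had 1, 0 and 0 counts; this neighbour was looked at after its values were seen. In the list of related proteases and plasmin control, 8 of 9 were above the floor. The cytosolic family members Prep (202 ± 4.01 CPM), Dpp9 (180 ± 8.16 CPM) and Dpp8 (99.0 ± 3.10 CPM) were all far above the floor (SD, n = 3). The plasminogen activator genes Plau and Plat had 61.2 ± 0.565 and 42.0 ± 1.95 CPM (SD, n = 3).

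S100a4, also called fibroblast-specific protein, had the highest level per kilobase of the set. The gene (chromosome 3, 90603771 to 90606045, plus strand) had 30.4, 30.8 and 32.4 CPM, a mean of 31.2 ± 1.01 CPM (SD, n = 3). Its exons total only 584 bases, which gave 53.5 ± 1.73 CPM per kilobase (SD, n = 3), percentile 95.4 of the protein-coding genes and 203 ± 59.7-fold (SD, n = 3) the level of Thy1. This level is uncertain, because the annotated gene Gm42674 lies on the same strand and shares 51.7% of the exonic bases of S100a4, and 56.4% of the 50-base windows of the mRNA occur in its transcript. Gm42674 was listed at 0 counts in every library. How reads falling in both genes were assigned is not stated, and reads left unassigned there would be missing from S100a4.

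Promoter sequences were available for 6 of the 10 genes, namely Cd34, Eng, Cd44, S100a4, Pdpn and Nt5e (RefSeq, GRCm38.p6). Start sites are those of RefSeq and can differ from the gene spans given above. For Nt5e the 250 bases before the RefSeq start, chr9:88327359-88327608, lie inside its gene span, which begins at 88327197. In the 250 bases before the start site, Nt5e had 21 CpG dinucleotides, Cd34 6, Cd44 5, Eng 4, and Pdpn and S100a4 2 each, where the 32851 promoters of the table had a median of 6 and quartiles of 2 and 16. The letters TATAAA in the last 50 of these bases, in the direction of the gene, were found in S100a4 alone among the 6 and in 2.63% of all promoters (3.504% when either strand was searched). The upstream sequences of S100a4 and Cd44, the highest members per kilobase, are shown to let both features be seen. In S100a4 (chr3:90603520-90603769, plus strand) capitals mark TATAAA, which begins 31 bases before the start site, and in Cd44 (chr2:102901666-102901915, minus strand) capitals mark each CpG.
S100a4: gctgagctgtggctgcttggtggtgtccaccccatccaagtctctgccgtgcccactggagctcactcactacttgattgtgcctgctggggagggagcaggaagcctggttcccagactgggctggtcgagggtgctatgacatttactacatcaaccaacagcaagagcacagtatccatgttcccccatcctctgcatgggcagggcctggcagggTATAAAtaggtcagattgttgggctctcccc
Cd44: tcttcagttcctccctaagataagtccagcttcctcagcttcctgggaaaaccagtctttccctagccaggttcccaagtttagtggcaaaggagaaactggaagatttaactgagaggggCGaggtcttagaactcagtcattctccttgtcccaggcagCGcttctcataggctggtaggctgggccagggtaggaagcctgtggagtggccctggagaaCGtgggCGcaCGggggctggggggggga
These letters describe the windows only and say nothing of the factors that act there.

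Thy1 was then set against a wider list of fibroblast and stromal reference markers. Of the 20 listed, 19 passed the floor, and 16 had a higher level per kilobase than Thy1. The highest of the list per kilobase stood far above it: Vim, the intermediate filament vimentin, had 4563 ± 238 CPM, the collagen gene Col1a1 4058 ± 262 CPM, Sparc 1555 ± 46.1 CPM and P4hb, a collagen-modifying enzyme, 1154 ± 28.1 CPM (SD, n = 3). Other genes of the same list were low, as given next. The cell type was taken from the study and was not tested. Several genes found in tissue-resident fibroblasts lay nearer to Thy1. Pdgfra had 4.97 ± 0.286 CPM (SD, n = 3) and was 1.88 ± 0.562-fold (SD, n = 3) the level of Thy1 per kilobase, whereas its relative Pdgfrb had 124 ± 4.94 CPM and was 87.6 ± 30.7-fold that level (SD, n = 3). Cdh11, a cadherin of mesenchyme, was not separated from Thy1, at 0.944 ± 0.157 of its level (SD, n = 3). Mme, a stromal peptidase, was lower at 0.517 ± 0.205 (SD, n = 3). Both comparisons depended on the length correction. By CPM, Cdh11 at 2.28 and Mme at 1.54 were above Thy1 at 0.836, and each was above it in every library. The small proteoglycan genes were lowest, with 8, 8 and 6 counts for Dcn and 0 in every library for Lum. Thy1 thus ranked 17 among the 21 genes per kilobase. This rank was the same without any 1 replicate, and it was 19 without a length correction.

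**Figure D2:**
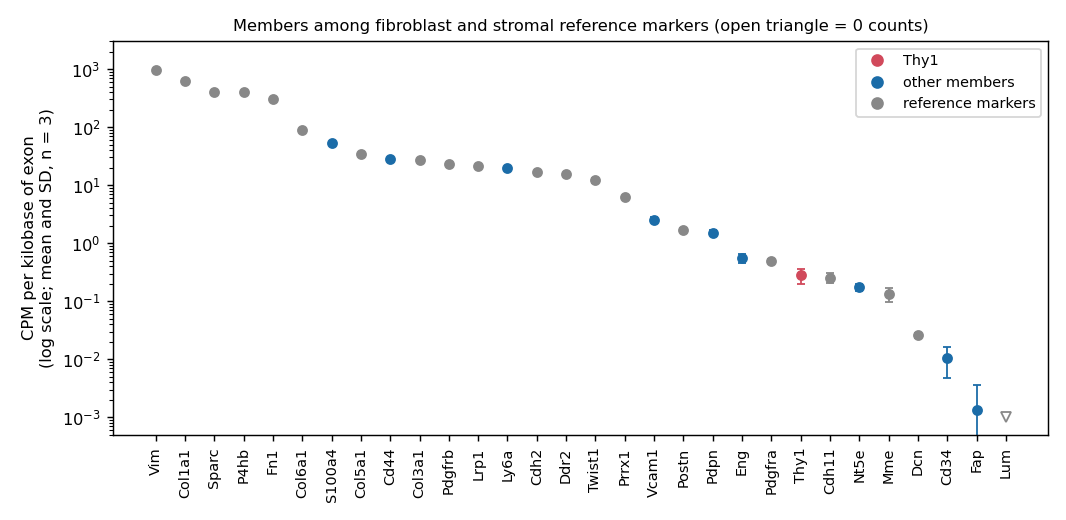
Mean CPM per kilobase of exon (log scale) with its SD over 3 libraries for the 10 markers (Thy1 in red, the others in blue) and 20 reference markers (grey), in order of level; the open triangle marks a gene with 0 counts. Thy1 sits at 0.279, next to Pdgfra and Cdh11 and well below Vim, Col1a1 and Sparc.

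The surroundings of Thy1 on chromosome 9 were not uniformly low. Of the 5 protein-coding genes nearest on either side, 5 of 10 passed the floor, against 58.9% of all protein-coding genes. Mcam, another stromal and pericyte surface marker (CD146), ends the group downstream with its nearest edge 85.9 kb from Thy1 and had 92.3 ± 1.48 CPM (SD, n = 3). Rnf26 had 50.7 ± 2.90 CPM and Usp2, the nearest gene, 2.71 ± 0.331 CPM (SD, n = 3). Upstream, Nectin1 had 16.9 ± 1.08 CPM and Oaf 33.4 ± 3.38 CPM (SD, n = 3). These upstream genes are remote, with starts at -299 kb and -803 kb relative to that of Thy1. Trim29 and Pou2f3 had at most 1 count in each library, Tmem136 and Mfrp had at most 10, and C1qtnf5 was listed at 0. Per kilobase, Thy1 lay between Usp2 at 0.563 and Tmem136 at 0.0353.

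**Figure D3:**
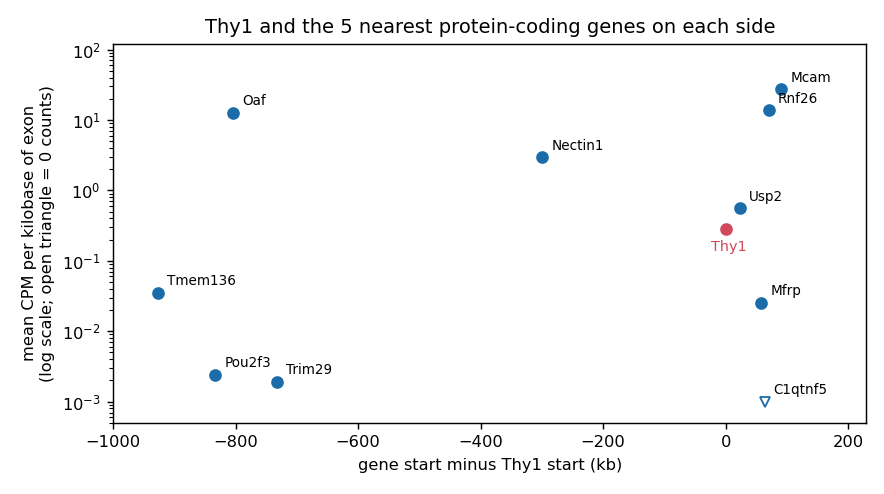
Mean CPM per kilobase of exon (log scale) of Thy1 (red) and its 5 nearest protein-coding genes on each side (blue), against the distance between gene starts in kilobases; the open triangle marks a gene with 0 counts. Mcam, Rnf26 and Oaf lie above 10 CPM per kilobase, with Thy1 at 0.279.

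Spread between libraries was not used to choose the genes, and it was tested for each gene against counting error by a chi-square test with Benjamini-Hochberg adjustment over the 13814 genes that reached 10 counts in each library. Of the 8 markers that could be tested, 2 varied beyond counting error at an adjusted p of at most 0.05, against 43.9% of all genes tested. The test compares libraries of a single condition. Vcam1 was lowest in replicate 1 (chi-square, adjusted p = 5.07e-05), with log2 deviations from the mean of -0.17 in replicate 1, 0.05 in replicate 2 and 0.13 in replicate 3. Without replicate 1 the call was lost (adjusted p = 0.380). Cd44 varied by a smaller amount, with the highest library 1.08-fold above the lowest (chi-square, adjusted p = 2.43e-06), and replicate 2 was lowest. Its transcript has 44.5% GC, below the median of 50.2% over the genes tested. Without replicate 2 the adjusted p was 0.533, and with library totals taken within bins of GC content it was 0.119. The Vcam1 transcript is also low in GC, at 44.1%, but its replicate 2 lay slightly above the mean. Vcam1 kept its call when totals were binned in the same way (chi-square, adjusted p = 1.03e-05). The part of GC content in either call was not tested further.

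Thy1 had the widest spread of the tested markers. Its highest library was 1.86-fold above its lowest, and its SD of log2 CPM was 0.45 where counting alone would give 0.23. Over all genes tested the median SD was 0.08. At these counts the difference missed the threshold (chi-square, adjusted p = 0.0567), while within bins of GC content the adjusted p was 0.0440 and without replicate 1 it was 0.0259; across all settings in which Thy1 was tested it lay between 0.0259 and 0.407. Its transcript has 55.8% GC, and replicate 2 was its lowest library, which is the direction opposite to the correlation with GC content. Eng spread by 1.41-fold from replicate 1 to replicate 3 (adjusted p = 0.0938). Ly6a, Nt5e, Pdpn and S100a4 had adjusted p-values from 0.152 to 0.353 and library ranges of 1.06-fold to 1.33-fold.

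**Figure D4:**
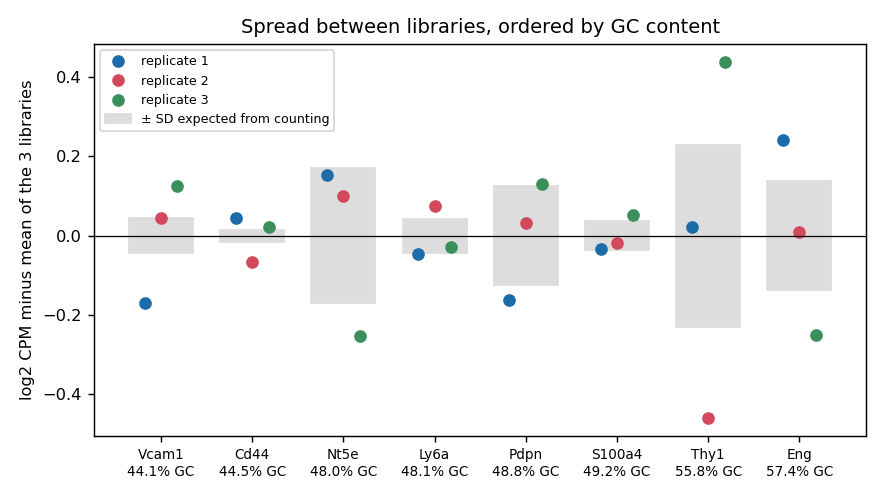
Deviation of log2 CPM in replicates 1 to 3 from the mean of the 3 libraries for the 8 markers that reached 10 counts in each library, ordered by GC content of the transcript; grey boxes span plus and minus the SD that counting alone would give. Thy1 spans from -0.46 in replicate 2 to 0.44 in replicate 3. Every marker shown leaves its box in some library, and the boxes of Cd44, S100a4, Ly6a and Vcam1 are the narrowest.

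Several of the markers are also used for other cell types, whose own genes were measured in the same libraries. Of the endothelial list 5 of 12 genes were above the floor, with summed levels of 21.3 to 24.4 CPM. These were mainly Flt1 at 10.5 CPM, Egfl7 at 7.20 CPM, Vwf at 2.70 CPM and Kdr at 2.09 CPM, while Cdh5 had 0, 0 and 1 counts and Robo4 0 in every library. Of the lymphatic list 1 of 5 was above the floor, with sums of 0.284 to 0.537 CPM and Prox1 at 1, 3 and 1 counts. In the T cell list, which bears on Thy1, 1 of 8 was above the floor, Lck at 2.82 CPM, with sums of 2.68 to 3.11 CPM, and Cd3e, Cd3d, Cd3g, Cd4, Cd8a and Cd5 were at 0. Of the other blood list 2 of 11 were above the floor, with sums of 7.68 to 9.07 CPM, nearly all of it Cd14, and Ptprc had 0, 1 and 0 counts. Neuronal genes, which also bear on Thy1, were above the floor in 7 of 7 cases, with sums of 57.4 to 57.7 CPM. Per kilobase they were led by Tubb3 at 10.95 CPM and Map2 at 40.9 CPM. Syt1 at 2.70 CPM and Snap25 at 1.89 CPM followed, with 0.324 and 0.2785 CPM per kilobase against 0.279 for Thy1. Stmn2, Rbfox3 and Nefl had 0.451, 0.306 and 0.283 CPM. The part of other cell types in the count of Thy1 was not tested.

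**Figure D5:**
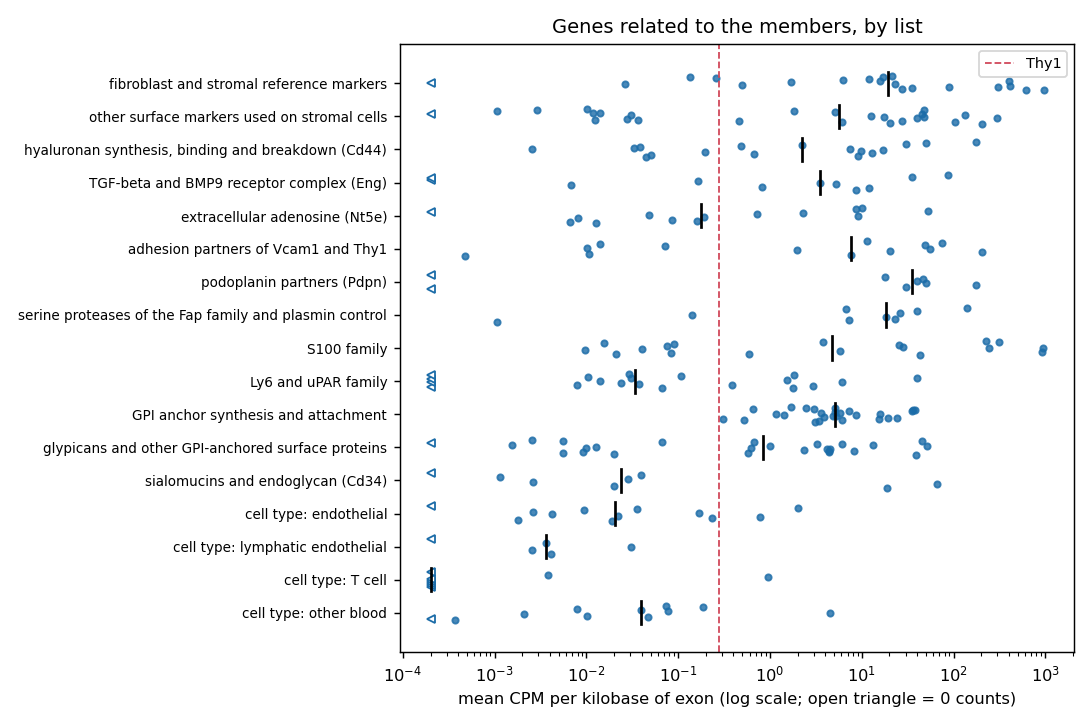
Mean CPM per kilobase of exon (log scale) of each gene in the lists related to the markers and in lists of other cell types, with the list median as a black bar and Thy1 (0.279) as a dashed line; open triangles mark genes with 0 counts. All 27 genes of GPI anchor synthesis lie above Thy1 by their means, Dpm1 only slightly, whereas most endothelial, lymphatic, T cell and other blood genes lie below it.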

How the data were processed

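The 3 KO-actin libraries were grouped and numbered by their labels. Values as the authors deposited them were raw counts per Ensembl gene, not normalized. The submitters' processing notes list Trimmomatic, FastQC, HISAT2 and HTSeq with mm10 and GRCm38, without versions; the annotation and strand setting are not given in the sources used here.

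Symbols, coordinates, union exon lengths and the longest coding transcript (for GC content and shared windows) came from GENCODE release M21, matched by identifier for 46091 of 46603 genes; the rest held 0.0544% of the counts. TMM scaling used edgeR 4.0.16 in R 4.3.3. Intervals and chi-square tests used scipy 1.17.1 (Python 3.11.15, with pandas 2.3.3 and numpy 2.4.6). The test was tested on simulated data that held only counting error and changes set in replicate 2. Those data had no GC pattern, so they cannot show how the test behaves where replicate 2 has 1. Figures used matplotlib 3.10.9. Alternatives were DESeq2 1.42.0 size factors, total counts, other filters and lengths, bins of GC content and leaving out each replicate.

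Markers, lists and tests were chosen with earlier results of these data known. Genes named were the 10 markers, at most the 4 highest per kilobase of each list, cell-type markers near 0, the 3 genes nearest to Thy1 in level and its 5 neighbours on each side. Others were named after their values were seen: Pdgfra, Pdgfrb, Dcn, Lum, Cdh11, Mme, Itgav, Ngfr, Lepr, Pi16, Bst1, Anpep, Enpep, Has1, Has2, Has3, Lyve1, Acvrl1, Bmpr2, Gdf2, Bmp10, Entpd1, Itga4, Itga9, Itgb3, Itgam, Itgb2, Icam1, Nfkb1, Clec1b, Dpp4, Dpp8, Prep, Plat, Fpgs, Gm42674, Dpm1, Rbfox3, Stmn2, Nefl and relatives of S100a4 and Ly6a.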

Additional observations from a re-analysis of the deposited data

How the results depend on the processing

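The number of genes varying between libraries was 6063, and 4026 within 20 bins of GC content. It ranged from 1748 without replicate 2 to 4786 without replicate 3, and the number of markers among them from 1 to 2, against 2. With total counts Thy1 passed the threshold (adjusted p = 0.04997), which made 3 markers. DESeq2 size factors changed no marker's call. The median ratio of the other 9 markers to Thy1 was 5.80 per kilobase of union exon, 3.36 with the longest transcript and 3.52 without a length correction, by construction of the lengths. Without a length correction Thy1 ranked 19 among the 21 reference genes instead of 17. The mean level of Thy1 lay between 0.703 and 0.962 CPM without any 1 replicate. The number of markers above the floor stayed at 8 without any 1 replicate and was 7 at 1 CPM in every library. With 29 to 49 counts per library, depth limits what can be said of the spread of Thy1, and Cd34 and Fap, with 11 counts and 1 count in all, could not be ordered. No paired analysis was possible because there is a single condition.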

Other observations

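Of the other surface markers used on stromal cells, 18 of 26 were above the floor, against 58.9% of all protein-coding genes. The highest per kilobase were the tetraspanin gene Cd63 at 1091 ± 60.4 CPM, Itgb1, the shared β1 integrin subunit, at 828 ± 39.4 CPM, Cd24a at 343 ± 12.6 CPM and Itga5, the α5 subunit of the fibronectin receptor, at 514 ± 15.9 CPM (SD, n = 3). Some members had few counts: Ngfr had 6, 6 and 6 counts, Lepr 5, 7 and 1, Pi16 2, 2 and 5, and Bst1 was at 0 in every library. The gene of the aminopeptidase Anpep had 7.54 ± 1.22 CPM (SD, n = 3) while Enpep had 1, 1 and 0 counts.

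The families of S100a4 and Ly6a were expressed unevenly. In the list of S100 genes and their partners 11 of 18 were above the floor (61.1%, against 58.9% of all protein-coding genes). S100a11 and S100a6, at 942 and 930 CPM per kilobase, were far above S100a4 at 53.5, and S100a10, which pairs with annexin A2, was at 244. S100a6 lies 6.84 kb from S100a4. Nearer to S100a4, S100a3 at 1.07 kb had 179, 166 and 133 counts, and S100a5 at 2.48 kb had 1, 1 and 3 counts. Myh9, the heavy chain of the non-muscle myosin that S100A4 binds, had 4009 ± 94.2 CPM (SD, n = 3). In the Ly6 and uPAR family 9 of 20 genes were above the floor (45%, against 58.9% of all protein-coding genes). They were led per kilobase by Plaur, the urokinase receptor, at 106 CPM, Lynx1 at 28.5 CPM and Ly6e with 554, 565 and 466 counts. Ly6d, Ly6k, Lypd3 and Gpihbp1 were at 0.

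Genes of further cell types were present in part. Each list count here is also to be read beside the 58.9% of all protein-coding genes above the floor. Of the mesothelial list 3 of 5 were above the floor, with Msln, encoding mesothelin, at 85.0 ± 2.46 CPM and Krt19 at 44.1 ± 4.14 CPM (SD, n = 3), whereas Upk3b had 1, 3 and 0 counts. Of the epithelial list 3 of 7 were above the floor, against 58.9% of all protein-coding genes. These were Krt19, given above, Krt18 at 37.9 ± 1.08 CPM and Krt8 at 1.48 ± 0.296 CPM (SD, n = 3). Epcam had 0, 1 and 0 counts. Of the smooth muscle and pericyte list 6 of 9 were above the floor, led by Acta2 at 6606 ± 91.2 CPM and Tagln at 775 ± 7.14 CPM (SD, n = 3), with Kcnj8 at 0. Of the adipocyte, bone and cartilage list 5 of 11 were above the floor, with Pparg at 38.2 ± 0.714 CPM, Runx2 at 52.0 ± 2.15 CPM and Sox9 at 12.8 ± 1.07 CPM (SD, n = 3), while Adipoq, Plin1 and Ibsp had at most 1 count in a library. None of these values was explained or tested further.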
